A study of Oryza sativa with 16 samples.

Results

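Untreated seeds of the japonica rice cultivar Zhonghua 11 (ZH) were compared between 12 and 10 days after fertilization (DAF), the same 2 days that a low temperature treatment begun at 10 DAF would cover. The comparison holds 4 of the 16 arrays, chosen by their labels: 2 of seeds at 12 DAF (ZH 12D) and 2 of seeds at 10 DAF (ZH 10D), replicates 1 and 2 of each. Plants of both groups stayed in a phytotron (28 °C day, 22 °C night), and total RNA of seed was hybridized to the Affymetrix GeneChip Rice Genome array, 1 sample an array. The other ZH arrays used here for comparison are 2 of untreated seeds at 6 DAF (ZH 6D) and 2 at 4 DAF (ZH 4D). There are also 2 arrays of seeds whose plants were moved at 10 DAF to 14 °C for 2 days (ZH 10D-2DC). For a further 2 arrays that move came at 4 DAF (ZH 4D-2DC), and their signals are described only for photosynthesis genes. The labels call the 2 arrays of a group biological replicates but do not say which plants they came from. P-values therefore measure only the spread between arrays of the same group. That spread was pooled over the groups of all 16 arrays, not taken from the 4 compared arrays alone. The 16 arrays include a second cultivar, Hanfeng, with an untreated group (HF 4D) and a chilled group (HF 4D-2DC) of 2 arrays each. Both Hanfeng groups also entered the mean level by which dim probe sets were filtered. A seed holds endosperm, embryo and maternal tissue, and in such whole-tissue RNA fewer cells of a type and less RNA per cell cannot be told apart.

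A cereal seed at this age is filling. Starch and storage proteins (glutelins, prolamins, globulins and albumins) are laid down in the starchy endosperm, helped by chaperones of the endoplasmic reticulum, while the embryo matures and both embryo and aleurone take up late embryogenesis abundant (LEA) proteins, many of them induced by abscisic acid (ABA). Cell division in the endosperm has mostly ended by then, and the green pericarp around the seed loses its chloroplasts as the grain ripens. The question here was which genes differ in level over 2 days of this phase at normal temperature.

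Levels are MAS5 signals, a linear brightness per probe set, and differences are in log2(signal + 16), 12D minus 10D, which understates the change of dim probe sets. After a filter on dim probe sets 34331 were tested with limma. The study's methods set 2 thresholds that bear on such a comparison: an unadjusted p under 0.05 and over 2-fold for low temperature, used here and called the methods' threshold, and an unadjusted p under 0.001 for time courses, which 0 probe sets passed. At the methods' threshold 154 probe sets (0.449% of those tested) were higher and 136 (0.396%) lower at 12D than at 10D, 290 (0.845%) in all. No probe set had a Benjamini-Hochberg adjusted p from limma under 0.05. The smallest adjusted p was 0.99997 and the smallest unadjusted p was 0.00154 (limma). The same 290 probe sets (0.845%) had an unadjusted p under 0.05, so the 2-fold condition removed none. If no probe set differed, a share of 0.05 would be expected to have such a p. The 290, and the genes named from them below, are thus fewer than a comparison without any difference would be expected to give. With each array's values centred on their median, the split was 124 higher and 192 lower. The counts also rested on single arrays, although with 1 array left in a group its spread is assumed to be that of the other groups: leaving out ZH 12D replicate 1 gave 52 higher, ZH 10D replicate 1 gave 538 and ZH 10D replicate 2 gave 320, and the lower count became 420 when ZH 12D replicate 2 was left out and 243 for ZH 10D replicate 2.

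The difference over these 2 days did not recur from one replicate number to the other. Within replicate 1 and within replicate 2 the 12D minus 10D differences had SDs of 1.01 and 0.91 over the probe sets, and their correlation was 0.0145 (over probe sets, not over independent replicates). They had the same sign for 49.3% of the probe sets: 8635 (25.2%) were above 0 in both numbers and 8294 (24.2%) below 0 in both. Past 2-fold in both numbers, 1158 probe sets differed in the same direction (537 higher, 621 lower) and 1105 in opposite directions. Across probe sets ZH 12D replicate 1 correlated better with ZH 10D replicate 1 (0.893) than with ZH 12D replicate 2 (0.842), and ZH 10D replicate 2 better with ZH 12D replicate 2 (0.924) than with ZH 10D replicate 1 (0.792). For comparison, the 6D minus 4D differences of the 2 numbers correlated at 0.156 and shared a sign in 54.4% of the probe sets.

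The agreement differed with brightness. Probe sets were split into 5 equal bins by mean level. In the brightest bin the differences of the 2 numbers correlated at 0.0775 and had SDs of 0.50 (replicate 1) and 0.77 (replicate 2), and 13 probe sets passed the methods' threshold. In the dimmest bin the correlation was -0.0001, the SDs were 1.37 and 0.93, and 101 passed. The standard error of the fitted difference had a median of 0.87, so that the 95% interval of a typical probe set reached 1.89 to either side. A 2-fold difference in a typical gene was therefore not detectable in this fit, which had no term for replicate number.

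**Figure D1:**
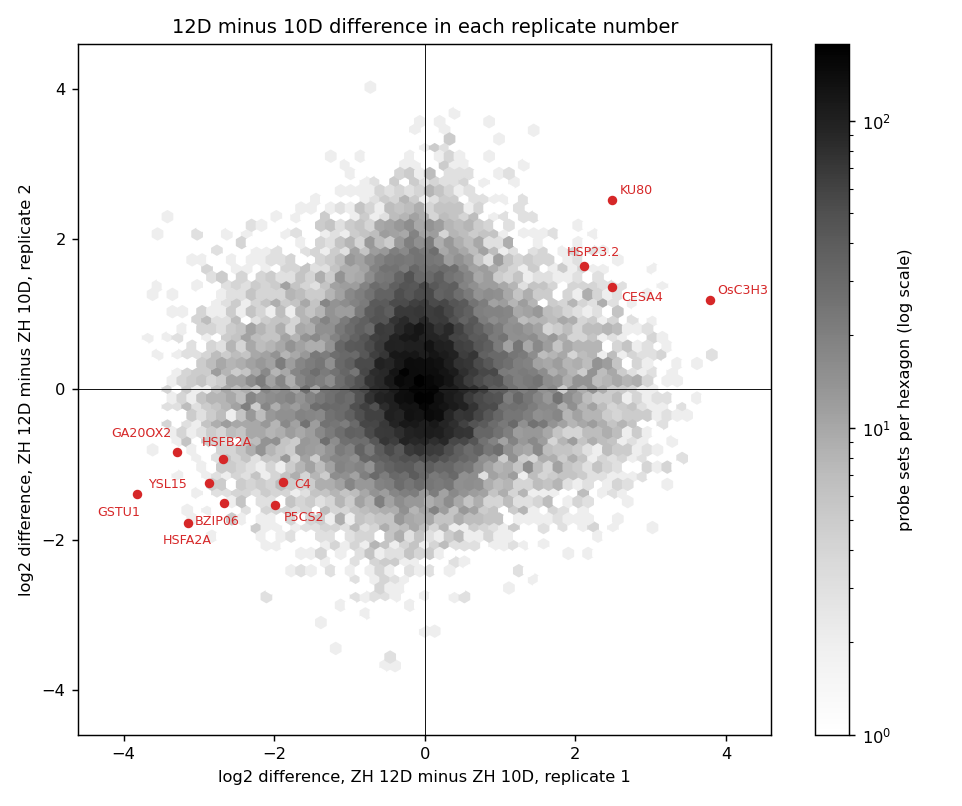
Each of the 34331 probe sets tested is placed by its log2 difference ZH 12D minus ZH 10D in replicate 1 (horizontal) and in replicate 2 (vertical); darker hexagons hold more probe sets, on a log scale. Red points mark the 12 named genes described next. They lie away from both axes, which the choice of these genes largely fixes. The cloud has no slope (correlation 0.0145).

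Of the 290 probe sets past the methods' threshold, 226 also differed by over 2-fold the same way within both replicate numbers, 125 higher and 101 lower. A single gene was listed for 107 of the 290, and 14 (5 higher and 9 lower, of 13 genes) had a gene with a name rather than a locus number. Of these genes, 10 met the rule of over 2-fold in both numbers, 4 higher and 6 lower, and GA20OX2 and HSFB2A enter through their gene lists. In the values that follow, arrays are given as replicate 1 and then replicate 2, and the adjusted p of each gene from limma was 0.99997.

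Among the genes higher at 12D, CESA4, a cellulose synthase subunit of secondary cell walls, had signals of 413 and 766 at 12D, against 60.4 and 287 at 10D. Its log2 difference was 1.93 ± 0.81 (SE, n = 2 arrays a group) with 2.49 in replicate 1 and 1.37 in replicate 2. A second CESA4 probe set gave 1.16 (0.45 and 1.87) and did not pass. HSP23.2, a small heat shock protein, had signals of 510 and 634 at 12D, against 105 and 193 at 10D. Its difference of 1.88 ± 0.84 was 3.68-fold, with 2.12 in replicate 1 and 1.64 in replicate 2. For both genes each 12D array was above each 10D array, as it was for 11.2% of all probe sets tested.

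KU80, a subunit of the Ku heterodimer that binds broken DNA ends for non-homologous end joining, had signals of 112 and 233 at 12D, against 6.85 and 27.2 at 10D, on a dim probe set. The difference was 2.51 ± 0.82, 5.68-fold, and nearly the same in both numbers (2.49 and 2.53). The brightest of its 4 probe sets did not differ that way: it read 3866 and 4766 at 12D, against 3557 and 8114 at 10D, a difference of -0.32 ± 0.69. The gene thus passed on 1 of its 4 probe sets. OsC3H3, named as a member of the CCCH zinc finger family, had 384 and 209 at 12D, against 12.9 and 82.3 at 10D, and differed by 2.49 ± 1.01 (3.79 and 1.20). BAT1, an amino acid transporter that lies outside the rule and was picked after its values were seen, passed the threshold with 463 and 201 at 12D, against 42.3 and 136 at 10D, but its difference of 1.78 ± 0.75 was 3.04 in replicate 1 and 0.52 in replicate 2.

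The lower genes were led by GSTU1, a tau class glutathione S-transferase that conjugates glutathione to xenobiotic and oxidized compounds. It had signals of 30.9 and 123 at 12D, against 647 and 351 at 10D. The difference was -2.61 ± 0.68, or 6.11-fold, with -3.82 in replicate 1 and -1.40 in replicate 2, and its unadjusted p in the limma fit was 0.0023. BZIP06, a basic leucine zipper transcription factor, had 14.0 and 87.4 at 12D, against 175 and 280 at 10D, a difference of -2.09 ± 0.74. The arrays of the 2 groups did not overlap for either gene, with 12D below 10D, as for 9.82% of all probe sets tested.

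YSL15, a transporter of iron bound to phytosiderophore, had 21.7 and 27.1 at 12D, against 258 and 86.1 at 10D (-2.05 ± 0.84). P5CS2, an enzyme of proline synthesis, had 17.8 and 24.95 at 12D, against 118 and 103 at 10D (-1.76 ± 0.74), whereas a second probe set of the gene gave 0.12 ± 0.88 and 2 others fell under the filter. C4, one of the anther genes kept here as markers of another tissue, had 18.7 and 15.6 at 12D, against 112 and 58.4 at 10D (-1.56 ± 0.65). GA20OX2, the gibberellin 20-oxidase behind the semi-dwarf habit, had 8.604 and 80.4 at 12D, against 225 and 155 at 10D. Its difference of -2.06 ± 0.85 was -3.29 in replicate 1 and -0.83, under 2-fold, in replicate 2. The 12D signals of these 4 genes ran from 8.604 to 80.4, and with a pseudocount of 64 none of the 4 passed. GA20OX2 in replicate 1 and C4 in replicate 2 read under the added 16 at 12D. So did BZIP06 in replicate 1 and HSFA2A, described below, in replicate 2. KU80 and OsC3H3 read under it in replicate 1 at 10D. The sizes of these differences are not exact.

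With single arrays left out, and the lone array of a group assumed to vary like the other groups, 9 of the 12 genes no longer passed the methods' threshold without ZH 12D replicate 1, 7 without ZH 12D replicate 2, 10 without ZH 10D replicate 1 and 4 without ZH 10D replicate 2.

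**Figure D2:**
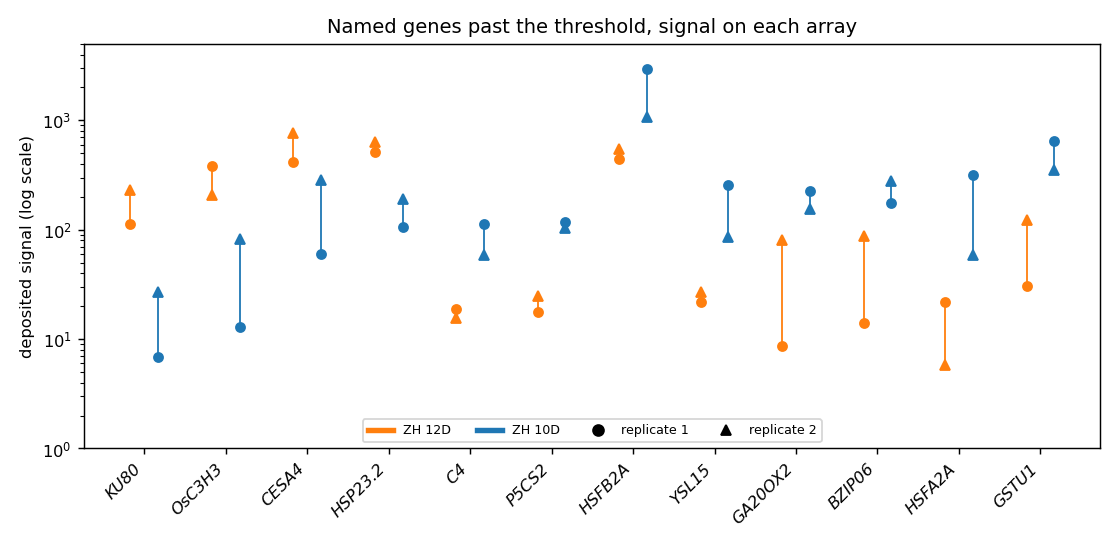
Signals of the 12 named genes on the 4 arrays, on a log axis, with ZH 12D left of ZH 10D and a marker for each replicate number. For each gene both 12D arrays lie on the same side of both 10D arrays, which the choice of these genes largely fixes and which held upward for 11.2% and downward for 9.82% of all probe sets tested.

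Of the 34331 probe sets tested 8.15% have a gene with a name, and of the 290 past the threshold 4.83%. The others over 2-fold in both numbers covered 73 genes with a locus number alone (43 higher, 30 lower) and 143 probe sets without a single listed gene. LOC4325624 had 210 and 182 at 12D, against 4.15 and 38.9 at 10D, and its difference of 2.67 ± 0.66 had the smallest p of the comparison. LOC4335550 had 80.5 and 129 at 12D, against 6.01 and 1.84 at 10D (2.58 ± 0.68). The 10D signals of LOC4335550, and that of LOC4325624 in replicate 1, were under the added 16, so these sizes are not exact. In the other direction LOC4333735 had 289 and 3461 at 12D, against 5377 and 13329 at 10D (-3.04 ± 0.99), and LOC4337133 had 331 and 6660 at 12D, against 8538 and 15420 at 10D (-2.92 ± 1.22). The last pair were bright at 10D and far lower in replicate 1 than in replicate 2 at 12D. No function is given for these 4 loci in the annotation used.

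Small heat shock proteins hold unfolding proteins in a refoldable state, and heat stress transcription factors (HSFs) drive their genes. Of 17 small heat shock protein genes tested 1 was higher (HSP23.2) and none lower, and of 20 HSF genes none was higher and 1 lower, HSFB2A, a class B factor, beside 0.845% of all probe sets tested. HSFB2A had 446 and 553 at 12D, against 2936 and 1064 at 10D, a difference of -1.80 ± 0.65 with -2.68 in replicate 1 and -0.92 in replicate 2. Its second probe set, at -1.96 ± 0.69, passed as well. HSFA2A, a class A factor, passed on 1 of 3 probe sets, with 21.9 and 5.76 at 12D, against 318 and 58.4 at 10D (-2.46 ± 1.11). Its other 2 gave -0.99 and -1.90 and did not.

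The median difference of the small heat shock protein genes was -0.39, with -0.22 in replicate 1 and -0.56 in replicate 2, beside 0.04 over all probe sets tested, and it ran from -0.79 to 0.13 when 1 array was left out. Of the 17, 7 were below 0 in both numbers and 4 above 0 in both. Over all probe sets tested 24.2% were below 0 in both and 25.2% above, the shares to set beside each such count below. The members with the lowest differences, picked after their values were seen, did not pass the test: HSP24.1 at -1.77, HSP17.4 at -1.57, HSP21.9 at -1.41, HSP17.7 at -1.24 and HSP18.0 at -1.20. HSP24.1 had 1540 and 544 at 12D, against 10050 and 995 at 10D, so that 1 bright 10D array carried much of its difference. HSP17.7 was even, with 853 and 776 at 12D, against 2052 and 1835 at 10D. The brightest member, HSP16.9A, had 36118 and 24632 at 12D, against 19534 and 24134 at 10D. The HSF genes had a median of 0.23, with 9 of 20 above 0 in both numbers and 3 below 0 in both. HSFA1 was the highest of them, with 2224 and 2043 at 12D, against 1051 and 1010 at 10D (1.04 ± 0.69, not past the test). The cytosolic chaperones of the HSP70, HSP90 and HSP101 families had a median of 0.01 over 7 genes, and none passed.

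**Figure D3:**
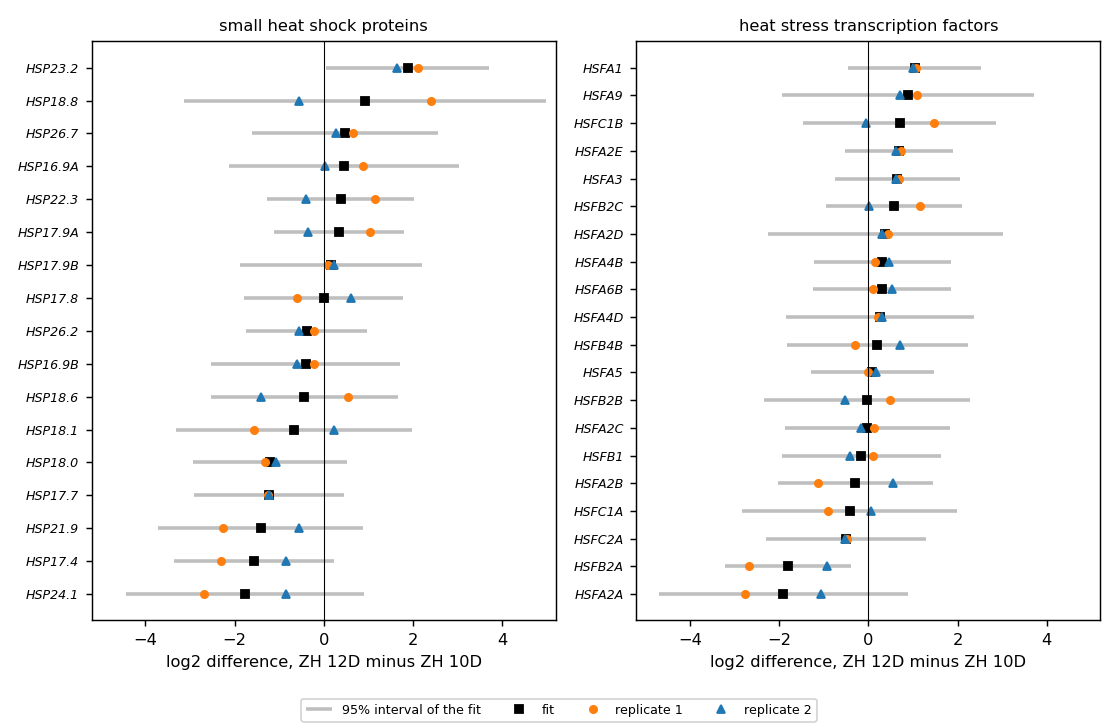
Fitted log2 difference ZH 12D minus ZH 10D (squares) with its 95% interval, and the difference within each replicate number, for the 17 small heat shock protein genes (left) and 20 heat stress factor genes (right), each at its brightest probe set. HSP23.2 and HSFB2A have intervals that leave out 0; HSFA2A is shown at a probe set that did not pass.

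By their median signal storage genes were already near the top of the array's range at 10D, although the lowest signal of the list was 142 and 21.9. The highest signal on an array was 185100 and 51870 at 12D, against 125700 and 58670 at 10D, so that the bright genes of the replicate 2 arrays lie close to the maximum, and whether signals there still follow the level was not tested. GLUA2, a glutelin, had 132580 and 42201 at 12D, against 86792 and 41230 at 10D (0.32, interval -3.49 to 4.14). PROLM25, a prolamin, had 173330 and 40505 at 12D, against 118690 and 49266 at 10D (0.13 ± 1.87). Of 11 storage protein genes none passed in either direction. The median difference was 0.19, with 0.55 in replicate 1 and -0.03 in replicate 2; quantile normalization turned the median to -0.08, and with 1 array left out it ran from -0.50 to 1.15. In replicate 1 the bright members were all somewhat higher at 12D, and in replicate 2 they lay on both sides. Above 0 in both numbers were 4, among them GLUA1 with 162210 and 44103 at 12D, against 110970 and 28969 at 10D, and 1 was below 0 in both, a gene listed under the synonym GLB1, whose product the annotation does not state (-0.73).

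Starch synthesis genes did not pass either. Granule-bound starch synthase Wx, which makes amylose, had 84101 and 28872 at 12D, against 72062 and 24489 at 10D (0.23 ± 1.43). AGPS2, a small subunit of ADP-glucose pyrophosphorylase, had 85443 and 31762 at 12D, against 64367 and 23557 at 10D, with 0.41 in replicate 1 and 0.43 in replicate 2. Of the 9 genes 5 were above 0 in both numbers and 1 below, and the median was 0.38 (0.22 and 0.43; -0.19 to 0.93 with 1 array left out). The 5 starch breakdown genes had a median of -0.15. Among 29 genes of sucrose breakdown, synthesis and transport the median was 0.14. SWEET11, a sucrose exporter that feeds the filling seed, had 46575 and 41294 at 12D, against 35489 and 44296 at 10D. Glycolysis and fermentation (21 genes, 0.02), nitrogen and amino acid metabolism (17 genes, 0.12) and storage lipid and fatty acid synthesis (10 genes, -0.17) had no member past the threshold. Phytic acid synthesis, the phosphorus store of the grain, had a median of 0.25 over 10 genes, of which 6 were above 0 in both numbers and none below in both. LPA2 had 9612 and 10062 at 12D, against 8602 and 5011 at 10D, the gap lying mostly in replicate 2.

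LEA and dehydrin genes were likewise bright in both groups. RAB21, a dehydrin induced by ABA and drought, had 92578 and 34816 at 12D, against 38918 and 32987 at 10D (0.66 ± 1.74), with 1.25 in replicate 1 and 0.08 in replicate 2. EM, a LEA protein of the maturing embryo, had 52870 and 32902 at 12D, against 30939 and 38529 at 10D, so that the 2 numbers went opposite ways (0.77 and -0.23). None of 8 passed, the median was 0.37 (0.80 and 0.09), and 4 were above 0 in both numbers. ABA synthesis and breakdown (7 genes, median 0.14) and the ABA signaling core (21 genes, -0.06) had no call. ABA8OX2, an ABA 8'-hydroxylase that breaks ABA down, had 2409 and 2355 at 12D, against 3023 and 3448 at 10D (-0.44 ± 0.87). VP1, the B3 factor of ABA-dependent embryo maturation, had 3479 and 4042 at 12D, against 3424 and 3209 at 10D. The 8 B3 and bZIP seed factors had a median of -0.21, with BZIP06 the 1 gene past the threshold.

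**Figure D4:**
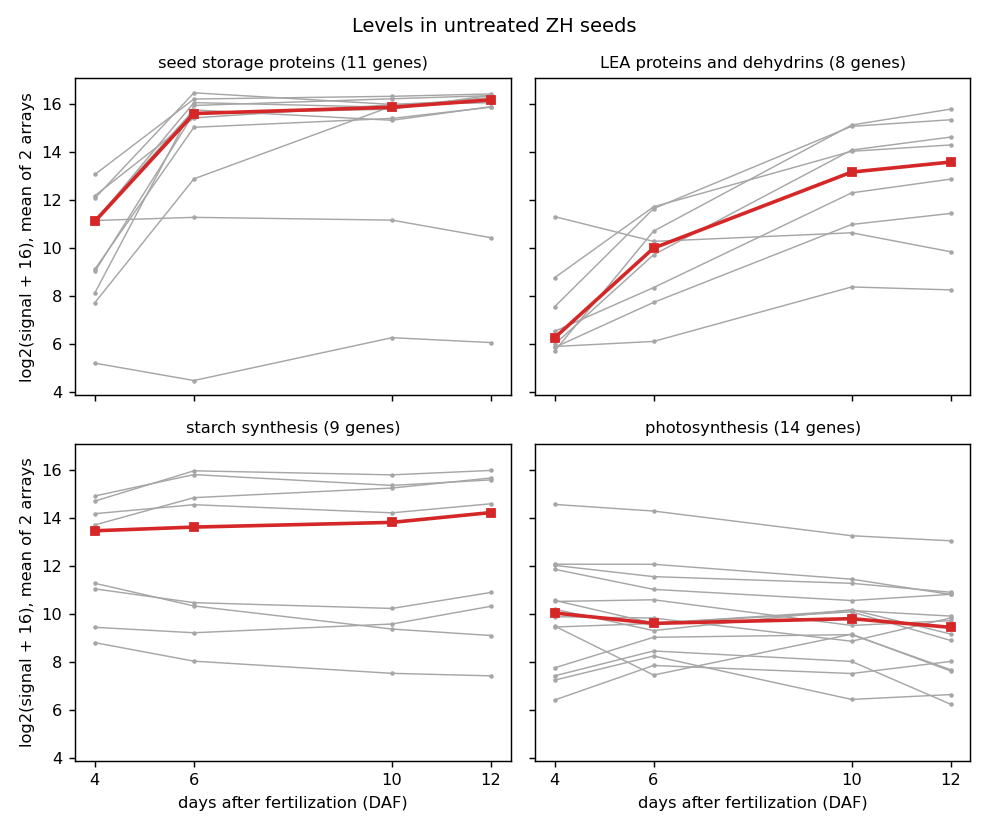
Log2(signal + 16), mean of 2 arrays, at 4, 6, 10 and 12 DAF in untreated ZH seeds for the storage, LEA, starch synthesis and photosynthesis lists; grey lines are genes and the red line is the median of the list. The storage median is 11.12, 15.61, 15.87 and 16.18 at 4, 6, 10 and 12 DAF and the LEA median 6.27, 10.01, 13.17 and 13.59. The later storage medians lie near the top of the arrays' range.

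The change over days 10 to 12 was set against that over days 4 to 6 (ZH 6D minus ZH 4D), with which it shares no array. The methods' threshold was passed upward by 426 probe sets (1.24%) and downward by 341 (0.993%) at 6D against 4D, again with no adjusted p under 0.05 (limma, smallest 0.640). An unadjusted p under 0.05 was held by 767 (2.23%), also below a share of 0.05. Of the 11 storage genes 8 were higher at 6D than at 4D, with a median difference of 4.57, which was 2.51 in replicate 1 and 6.83 in replicate 2. The 4D arrays differed widely: GLUA2 had 139030 and 33737 at 6D, against 27688 and 163 at 4D. PROLM25 had 129690 and 30602 at 6D, against 4187 and 3.04 at 4D. Of the 8 LEA genes 4 were higher, with a median of 2.42, and EM had 2248 and 4535 at 6D, against 257 and 114 at 4D. The largest list median between 12D and 10D was 0.49 in size, and the list medians between 6D and 4D ran from -1.15 to 4.57.

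The difference between the 2 changes was tested in the same fit. For 236 probe sets (0.687%) the change over days 10 to 12 was the higher at the methods' threshold and for 216 (0.629%) the lower, 452 (1.32%) in all; with median centring the split was 148 and 320. No adjusted p was under 0.05 (limma, smallest 0.99993), and the 452 probe sets with an unadjusted p under 0.05 were again below a share of 0.05. The count was 247 without ZH 6D replicate 1, 772 without ZH 6D replicate 2, 776 without ZH 4D replicate 1 and 790 without ZH 4D replicate 2. Storage genes were among those with the lower change, 4 of 11 on the list: PROLM25 (-7.67 ± 2.65), GLUA1 (-6.00 ± 2.58), RA17 (-4.79 ± 2.08) and RA5 (-3.15 ± 1.45). These sizes set signals near the top of the arrays' range at 10D and 12D against 4D signals as low as 3.04, and are not exact. EM (-3.82 ± 1.57), the tonoplast aquaporin TIP3-2 (-2.71 ± 1.17), the ethylene receptor gene ETR4 (-2.63 ± 1.20) and GSTU1 (-2.12 ± 0.97) were also there. Of these, GSTU1 alone also passed the threshold between 12D and 10D.

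Among list members the change over days 10 to 12 was the higher for 2 of 40 cyclin and cyclin-dependent kinase genes, 2 of 64 auxin genes and 1 of 28 cytokinin genes, beside 0.687% of all probe sets. The B-type cyclin CYCB1-3, which acts at mitosis, differed by 1.01 between 12D and 10D and by -2.61 between 6D and 4D, a gap of 3.61 ± 0.94. CYCB2-2 (2.38 ± 1.07), the sucrose transporter gene SUT5 (4.39 ± 1.58), the auxin response repressor genes IAA26 (3.45 ± 1.53) and IAA7 (2.46 ± 1.02), the cytokinin response regulator gene RR9 (2.99 ± 1.06) and the KNOX homeobox gene OSH1 (2.33 ± 1.03) followed. OSAP1, a protease gene by its list, had 108 and 57.7 at 12D, against 17.2 and 5.13 at 10D, and 185 and 401 at 6D, against 2016 and 22297 at 4D. Its gap of 6.39 ± 2.23 rests on the high 4D level. Each of these genes except IAA26 was lower at 6D than at 4D by the methods' threshold, and none passed between 12D and 10D.

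In hormone pathways 1 gene passed. The gibberellin list (13 genes, median -0.14) held GA20OX2, which was also lower at 6D than at 4D by 2.08 on the log2 scale. Auxin (64 genes, 0.10), cytokinin (28 genes, 0.10), ethylene (10 genes, -0.07) and brassinosteroid (13 genes, -0.19) had none. Jasmonate genes had a median of 0.31, with 8 of 25 above 0 in both numbers and none below in both. Over all probe sets tested the shares were 25.2% above and 24.2% below. The jasmonate median was 0.71 in replicate 1 but -0.06 in replicate 2. JAR1, which joins jasmonate to isoleucine, had 4281 and 1788 at 12D, against 1223 and 640 at 10D (1.63, not past the test). JAZ11, a repressor of jasmonate signaling, had 2202 and 928 at 12D, against 934 and 379 at 10D.

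Genes of cell division and growth gave few differences. DNA replication (29 genes, -0.05), cyclins and cyclin-dependent kinases (40 genes, -0.02) and core histones (6 genes, -0.06) had no member past the threshold. PCNA, the sliding clamp of DNA polymerase, had 853 and 1256 at 12D, against 1064 and 1664 at 10D (-0.36 ± 0.61). In the cell wall list (51 genes, median -0.12) CESA4 passed. There 17 genes were below 0 in both numbers, against 8 above, beside 24.2% below and 25.2% above over all probe sets tested. The beta-expansin EXPB6, chosen after its values were seen, had 58.0 and 1283 at 12D, against 362 and 10194 at 10D. It was lower in both numbers (-2.35 and -2.97), yet its fitted difference of -2.66 ± 2.16 did not pass. Aquaporins (22 genes) had a median of -0.04, and the seed tonoplast aquaporin TIP3-1 had 99632 and 37506 at 12D, against 67047 and 40040 at 10D.

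Protein synthesis and turnover lists had no member past the threshold. Ribosomal protein genes had a median of -0.21, with 11 of 23 below 0 in both numbers and 1 above, though the median was 0.05 in replicate 1 and -0.46 in replicate 2. The proteasome (14 genes) was at -0.08, ER folding and secretion (31 genes) at 0.01, and protease and amylase inhibitors (10 genes) at -0.03. BIP1, the main chaperone of the endoplasmic reticulum, had 72766 and 21209 at 12D, against 50032 and 24483 at 10D. Antioxidant enzyme genes had a median of -0.15 with 11 of 22 below 0 in both numbers and 3 above. APX2, a cytosolic ascorbate peroxidase, had 9974 and 12858 at 12D, against 12785 and 20132 at 10D (-0.50 ± 0.56). Metallothioneins (6 genes, 0.05), glutathione S-transferases (5 genes, -0.05, with GSTU1 past the threshold), lipid transfer proteins (5 genes, 0.02), vacuolar and other proteases (3 genes, 0.47) and the cold response list (10 genes, -0.25) completed the set.

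Among transcription factor families none but those already named had a member past the threshold. The NF-Y (HAP) subunits, which bind CCAAT boxes, had a median of -0.39, even between the numbers (-0.37 and -0.36), with 7 of 10 below 0 in both and -0.58 to -0.27 when 1 array was left out. NFYB10 had 163 and 166 at 12D, against 352 and 295 at 10D (-0.91). The endosperm subunit NFYB1 was the brightest and went the other way in the fit, with 14733 and 26430 at 12D, against 8519 and 31924 at 10D. WRKY factors (5 genes) had a median of 0.49, which ran from -0.27 to 0.71 with 1 array left out, and the circadian clock genes (7 genes) 0.47, with 4 above 0 in both numbers and none below. CCA1, a morning clock gene, had 3730 and 1427 at 12D, against 2754 and 595 at 10D (0.84), and the time of day of sampling is not given in the sources used here. The remaining medians were -0.16 for MADS-box (23 genes), -0.05 for NAC (7), 0.01 for AP2/ERF and DREB (10), 0.32 for MYB (9) and 0.07 for homeobox factors (44).

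Across the 45 lists 6 of 747 genes (0.803%) passed the methods' threshold, 2 higher and 4 lower, beside 0.845% of all probe sets. They were HSP23.2 and CESA4, and GSTU1, BZIP06, GA20OX2 and HSFB2A. The 2 shares are not like for like, because list genes are read at their brightest probe set. Over all probe sets the share passing was 1.47% in the dimmest bin and 0.189% in the brightest. Of the 747, 373 had the same sign in both replicate numbers, beside 49.3% of all probe sets, and 20 of the 45 list medians had the same sign in both. With 1 array left out, 40 of the 45 medians took both signs.

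**Figure D5:**
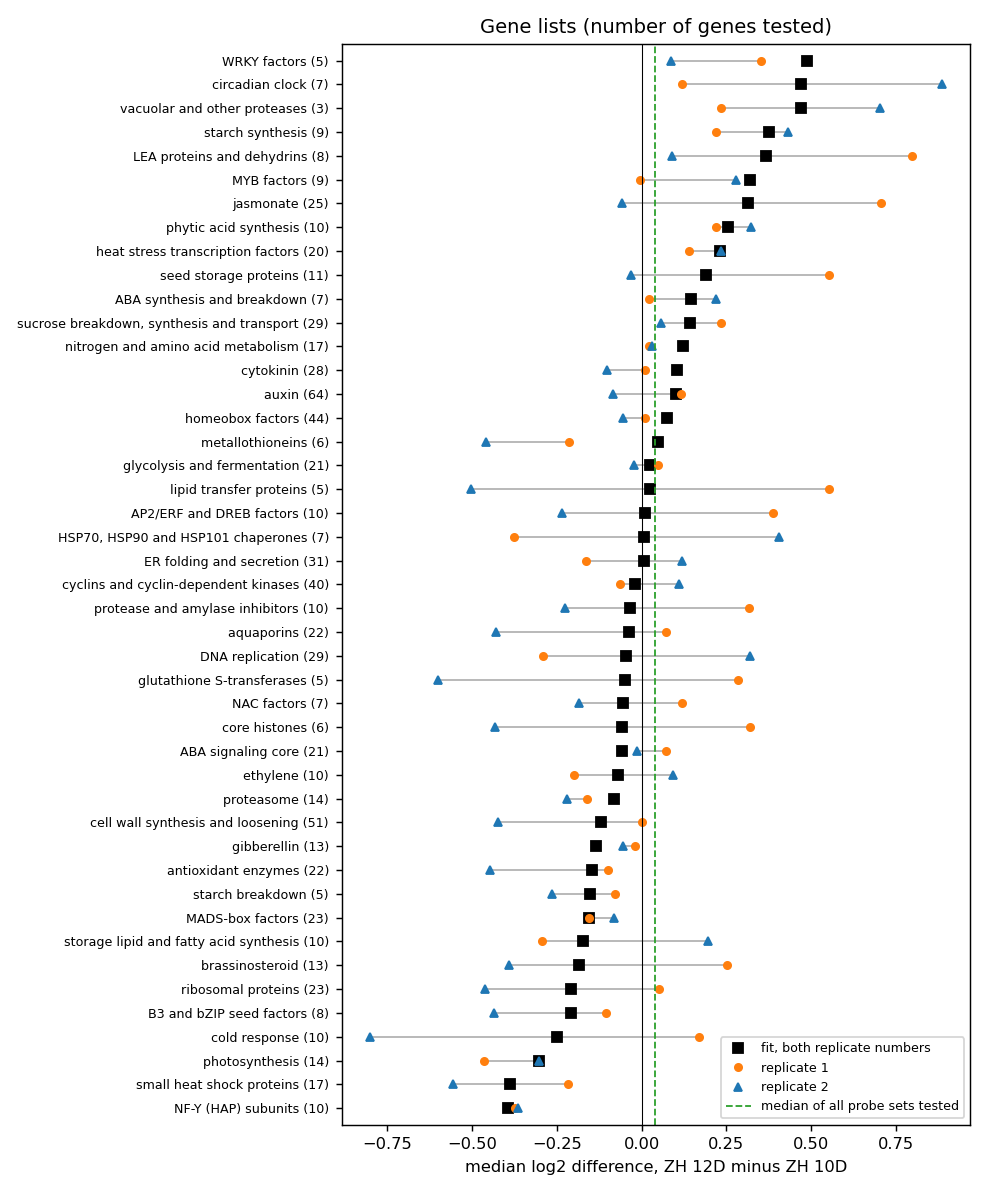
Median log2 difference ZH 12D minus ZH 10D of each gene list in the fit and within replicate 1 and replicate 2, lists sorted by the fitted median, which runs from -0.39 to 0.49 with the scaling as deposited. For 20 of 45 lists the 2 replicate medians lie on the same side of 0.

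Some genes separated the replicate numbers more than the ages. The photosynthesis genes were dimmer in replicate 1 than in replicate 2 in all 6 ZH groups: their median gap was 17.4-fold at 12D and 12.2-fold at 10D, with 13 of 14 genes higher in replicate 2 in each, and 7.74-fold at 4D, 11.4-fold at 6D, 10.5-fold in 10D-2DC and 6.61-fold in the seeds kept at 14 °C from 4 DAF. The light-harvesting gene CAB2R had 2662 and 26938 at 12D, against 2789 and 34502 at 10D. Their summed signal was 5159 and 72500 at 12D, against 5924 and 101600 at 10D. Between the ages the list's median was -0.30 (-0.46 and -0.30), 6 of 14 were below 0 in both numbers and none above in both, and none passed the test; with 1 array left out the median ran from -2.49 to 1.65. MADS29, a factor of maternal seed tissue degeneration, showed the same gap between the numbers, with 635 and 4934 at 12D, against 514 and 6941 at 10D, and so did the metallothionein gene MT2B, with 314 and 7856 at 12D, against 831 and 18027 at 10D. The part of this gap in the other differences was not tested.

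The label of seed was checked against markers. Starchy endosperm markers were bright by their median on every array, with median signals of 110000 and 33300 at 12D, against 75830 and 26050 at 10D over 10 genes. The lowest signal among them was 85.0 and 28.8 at 12D, against 142 and 21.9 at 10D. Aleurone markers (5 genes) had medians of 47840 and 34340 at 12D, against 30010 and 42060 at 10D. The 9 embryo markers were dimmer, with medians of 414 and 461 at 12D, against 464 and 739 at 10D. Their brightest, EM, had 52870 and 32900 at 12D, against 30940 and 38530 at 10D. The summed signal of the 3 anther markers tested, of 7 on the array, was 730 and 639 at 12D, against 681 and 228 at 10D, with C4 lower and EAT1 at 689 and 592 at 12D, against 478 and 139 at 10D. The 8 green pericarp markers, which share genes with the photosynthesis list, summed to 5266 and 57550 at 12D, against 4751 and 78590 at 10D. The 3 root markers tested, of 5, summed to 417 and 504 at 12D, against 313 and 437 at 10D. Median signal per array was 116 and 59.5 at 12D, against 123 and 56.3 at 10D, again split by replicate number.

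The seeds kept at 14 °C for 2 days from 10 DAF have the same age as ZH 12D, and their difference from ZH 10D shares both 10D arrays with the difference described here, so the values are only set side by side. For CESA4 the difference from 10D was 1.93 at 12D and 2.27 in 10D-2DC (signals of 859 and 602), and for HSP23.2 it was 1.88 at 12D and 2.40 in 10D-2DC (888 and 757). GSTU1 gave -2.61 at 12D and -1.27 in 10D-2DC, and BZIP06 -2.09 at 12D and -1.27 in 10D-2DC. YSL15 gave -2.05 at 12D and -0.99 in 10D-2DC, and P5CS2 -1.76 at 12D and -1.15 in 10D-2DC. The list of 20 heat stress factor genes had median differences from 10D of 0.23 at 12D and 0.61 in 10D-2DC. For HSFB2A, HSFA2A, GA20OX2 and C4 the values differed in sign. HSFB2A gave -1.80 at 12D and 1.45 in 10D-2DC (4529 and 5257), and HSFA2A -2.46 at 12D and 1.19 in 10D-2DC (453 and 260). GA20OX2 gave -2.06 at 12D and 0.56 in 10D-2DC, and C4 -1.56 at 12D and 0.50 in 10D-2DC. KU80 gave 2.51 at 12D and 0.46 in 10D-2DC, and OsC3H3 2.49 at 12D and 0.04 in 10D-2DC.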

How the data were processed

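The authors deposited 1 table of probe set intensity for the 16 arrays, made with MAS5 per the labels, whose 2% trimmed mean was 499.8 to 499.9 on every array; the study's methods name GC-RMA instead. Each group had 2 arrays, and their number limits the precision. Values were analysed as log2(signal + 16) without further scaling. Of 57381 probe sets, 187 controls were removed, and the 34331 whose mean over all arrays lay above the 40th percentile were tested with limma 3.58.1 in R 4.3.3 (lmFit, eBayes, 1 coefficient per condition, two-sided, 8 residual and 4.58 prior degrees of freedom), after the steps were tested on simulated data. Intervals are 95%. A gene was named only from a probe set with 1 listed gene (22436; 95 had several and 34850 none listed), matched to the RefSeq table of assembly ASM3414082v1, in which 2457 genes had a name.

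Named genes were the up to 10 largest changes each way past the methods' threshold and over 2-fold in both replicate numbers, list members past the threshold or, where none passed, the 3 brightest, and the 4 brightest of each marker list; other genes were picked with their values known, to illustrate a list's count. A gene in a list is read at its brightest probe set. Members and lists were chosen with earlier results of these data known. Genes with only a locus number have no product description in the tables used, so the part of the rule for them was replaced by the 4 examples given, the 2 largest each way, and promoter motifs were not analysed here. Alternatives tried were the pseudocount, filter, scaling, replicate block, arrays in the fit and leaving out single arrays; leaving out the day 4 and 6 arrays was added after seeing the data. Figures were drawn with matplotlib 3.10.9.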

Additional observations from a re-analysis of the deposited data

Results flagged for a closer look

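For 16 genes of the lists the change over days 10 to 12 differed from that over days 4 to 6 at the methods' threshold in the test of the difference itself, although the smallest adjusted p (limma) over all probe sets was 0.99993. The gaps, late minus early, were below 0 for GSTU1 (-2.12), ETR4 (-2.63), TIP3-2 (-2.71), RA5 (-3.15), EM (-3.82), RA17 (-4.79), GLUA1 (-6.00) and PROLM25 (-7.67). They were above 0 for OSH1 (2.33), CYCB2-2 (2.38), IAA7 (2.46), RR9 (2.99), IAA26 (3.45), CYCB1-3 (3.61), SUT5 (4.39) and OSAP1 (6.39).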

How the results depend on the processing

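No setting gave a probe set with an adjusted p under 0.05. Counts of probe sets higher and lower at 12D were 102 and 98 with a pseudocount of 64, 250 and 226 without the filter, and 70 and 86 with a filter at the 60th percentile. Leaving out 1 array each gave 52 to 538 higher and 112 to 420 lower. The difference between the 2 changes gave 273 probe sets with the 60th percentile filter and 247 to 790 when 1 array was left out. For these settings the cause was not tested, apart from the fewer or more probe sets tested under the filters. The labels do not say that a replicate number marks a pairing, and there are only 2 numbers; deviations of the 12D and 10D arrays from their group means correlated at 0.521. With the replicate block 413 were higher and 493 lower, holding all 290 of the fit without it, and the difference between the changes had 1122; with quantile normalization and the replicate block these were 328, 485 and 1052. Of the 12 named genes past the threshold, 5 did not pass with a pseudocount of 64, 3 with the 4 arrays alone and 2 each with quantile normalization and with untreated ZH groups alone; none was lost under the replicate block. List medians turned sign for 8 of 45 lists with quantile normalization and 7 with median centring.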
